A study of Bos taurus with 12 samples.

Results

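The genes described here are the cadherins, the protocadherins, the FAT cadherins and the catenins of the cow, read at cytosines whose methylation in blood differed between subfertile and fertile dairy cows. A site belonged to this group when the deposited annotation placed it in a promoter, exon, intron or downstream stretch of a gene whose symbol begins with CDH and a digit, with PCDH or with CTNN, or is FAT1 to FAT4. The symbol was that of the gene the annotation text names as host, and CDH23 was left out by the rule. This gave 758 of the 216,990 deposited sites, or of the 92,535 that lie in a gene feature, and they lay in 30 of 10,773 genes with such a site. Of 53 protein-coding cow genes in RefSeq whose symbols fit the rule, 30 held a site.

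Whole blood, 1 mL per cow, was taken from cows aged 3 to 8 years kept under the same conditions on 1 farm. The subfertile group was 6 cows that were culled within the following year for reproductive complications not recognised when the blood was drawn. The fertile group was 6 cows that stayed in the herd without fertility problems. The labels give the group under the heading genotype, as Fertile or Subfertile, and name no allele and no treatment. Whether alleles differ between the groups is unknown, since no genotypes were used here. Breed is not given in the labels, and each cow gave 1 sample. The DNA was converted enzymatically, so methylated and hydroxymethylated cytosines read alike as methylated, and each value is the percent methylated of 1 cytosine in 1 cow. Read depth per site is unknown, since only percentages are held. The columns of the subfertile cows carry the letter F and those of the fertile cows the letter R. No source explains these letters. Groups were taken from the labels, and should the letters prove to mean the reverse, all directions below would be reversed too. In bulk blood DNA a different mix of cell types and a different methylation per cell cannot be told apart.

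Cadherins are calcium-dependent adhesion molecules of the cell membrane. The extracellular repeats of a classical cadherin bind those of the same kind on a neighbouring cell, and its cytoplasmic tail holds beta-catenin and p120-family catenins, which alpha-catenins link to actin. Protocadherins share the extracellular repeats without that tail and are best known for recognition between neurons, while the FAT proteins are giant cadherins with roles in planar cell polarity and growth control. Most of these genes are long and mainly active in epithelium, endothelium, muscle or brain rather than in circulating blood cells.

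All sites had been selected by the authors on these same cows, at a difference of at least 25 percentage points and a q-value under 0.01. Differences at the sites are therefore descriptions. The limma p-values below set the difference between the groups against the scatter of the 12 cows within them. Since the same cows chose the sites, these p-values give no independent evidence of a difference. In the 30 genes 414 sites were higher and 344 lower in subfertile than in fertile cows, or 54.6% higher, against 50.6% of all sites in gene features. The authors' differences had a median size of 33.9 points and ran up to 63.8 points. Introns held 714 of the 758 sites (94.2%, against 83.2% of all sites in gene features), promoters 28 (3.69%, against 12.99%), exons 15 and the downstream stretch 1. The genes had a median listed length of 145 kb, against 27.6 kb for the other genes with a site, and 5.28 sites per 100 kb against 14.9. Among genes of at least 100 kb the figures were 4.77 sites per 100 kb in the 21 members and 5.89 in 1997 others, and the listed length may be that of 1 transcript.

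Averaged over its sites in each cow, no member differed between the groups past the limma test with Benjamini-Hochberg adjustment over all genes. The count was 0 of 30 at an adjusted p of at most 0.05, where 12 of 9891 genes (0.121%) passed, and the members' adjusted p ran between 0.0619 and 0.874. At an unadjusted limma p under 0.05 there were 7 of 30 members, against 40.6% of all genes. PCDHA13, CDH12 and CDH1 were the 3 higher in subfertile cows, where 21.6% of all genes were, and CTNNBL1, PCDH15, FAT4 and CDH9 the 4 lower, where 18.9% were. The means of 18 members were higher and of 12 lower in subfertile cows, with a median difference of 5.42 points, while 5127 genes were higher and 4764 lower over the whole table, with a median of 1.78 points. No member's cow means separated the groups without overlap, against 3.38% of all genes. Leaving out the wide-range sites, those at which some cow lay under 10% and some other over 80%, 10 of 28 members passed, against 42.2% of all genes so treated. These were CDH2, CDH10, FAT2, FAT4, PCDH7 and PCDHA13, higher in subfertile cows, and CDH8, CTNNA3, CTNNBL1 and PCDH15, lower. CDH10 and PCDHA13 passed on 1 site each, FAT2, FAT4 and PCDH7 on 2 each and CTNNBL1 on 3. PCDH15 passed on 7 sites, CDH2 on 10, CDH8 on 11 and CTNNA3 on 36. Over the 2 sites left to each, FAT4 and PCDH7 turned against their direction over all sites, to 28.5 and 29.5 points. With only sites of at least 40 points 5 of 15 passed, against 43.7%, with CDH1, CDH12 and FAT3 higher and FAT4 and PCDH15 lower. CDH12 passed there on 1 site, CDH1 and FAT3 on 4 each, PCDH15 on 6 and FAT4 on 15. At single sites, 0 of 758 passed the same adjustment over all sites (0% of 216,990), and 348 of 758 had an unadjusted limma p under 0.05, against 52.7% of all sites and 53.7% of those in gene features.

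**Figure D1:**
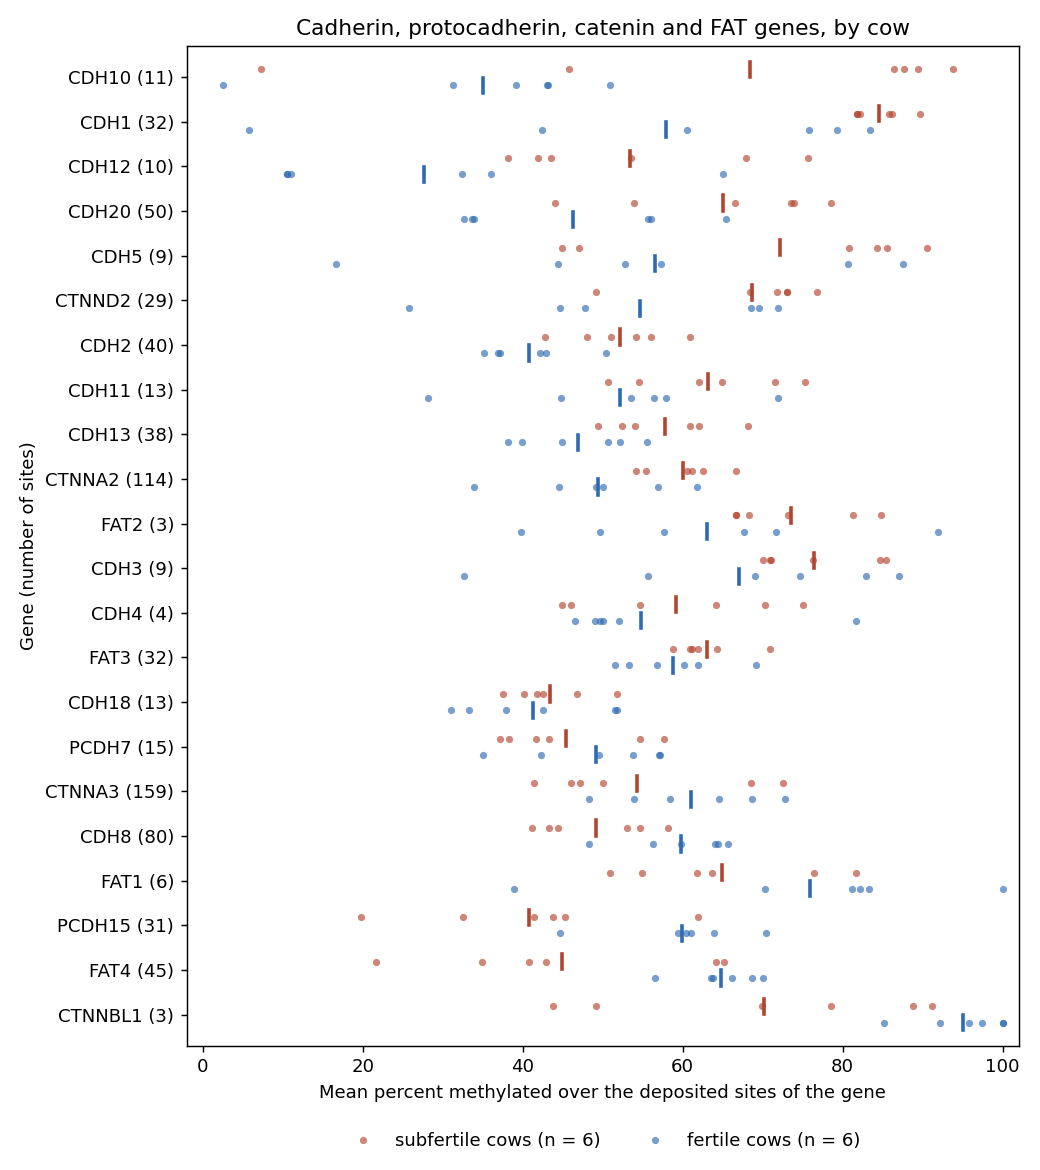
Mean percent methylated over the deposited sites of each gene with at least 3 sites, for the 6 subfertile cows (red, upper row of each pair) and the 6 fertile cows (blue, lower row). Points are cows, upright bars are group means, and the number of sites follows each gene name. The rows overlap for every gene, CDH1 has the tightest subfertile cows (81.7% to 89.7%) with a fertile cow at 5.80%, and CDH10 spreads widely in the subfertile cows.

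All 4 classical type I cadherins with sites, CDH1, CDH2, CDH3 and CDH4, had higher means in subfertile cows, with 66 sites higher and 19 lower and a median difference of 10.4 points over the 4 genes. Over all genes tested 5127 of 9891 had higher means. Without wide-range sites CDH3 turned to -14.5 points over 4 sites and CDH4 to -19.1 over 1 site. CDH1, over 1 site, and CDH2, over 10, stayed higher at 30.8 and 27.7 points. None passed the adjusted test over all sites. CDH1, epithelial cadherin, held 32 sites on chromosome 18 of ARS-UCD1.2 between 36044768 and 36114611, 30 of them higher and 2 lower. Its mean lay between 81.7% and 89.7% in the subfertile cows, with a median of 84.0%. In the fertile cows it lay between 5.80% and 83.4%, with a median of 68.2%. The subfertile cows were close together and the fertile cows were not: 4 of them had 83.4%, 79.3%, 75.8% and 60.5%, another had 42.4%, and fertile cow 1 had 5.80%. The group means were 84.6 ± 3.21% and 57.9 ± 29.6% (SD, n = 6 each), a difference of 26.7 points (limma adjusted p = 0.113). Fertile cow 1 read 0% at 30 of the 32 sites, and without it the difference was 16.3 points (limma adjusted p = 0.143, with 0.0349 to 0.164 over all settings tried).

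CDH2, neural cadherin, held 40 sites on chromosome 24, of which 28 were higher and 12 lower. Its mean ran between 42.8% and 60.9% with a median of 52.6% in subfertile cows, and between 35.2% and 50.4% with a median of 39.7% in fertile cows. The ranges shared the stretch between 42.8% and 50.4%, which held 2 subfertile and 2 fertile cows. The means were 52.2 ± 6.35% and 40.8 ± 5.64% (SD, n = 6 each; limma adjusted p = 0.170). Its second intron held 27 sites and averaged 57.4 ± 4.19% in subfertile and 46.7 ± 6.92% in fertile cows, and its first intron held 10 sites at 37.7 ± 26.1% and 13.9 ± 11.6%. CDH3, placental cadherin, the neighbour of CDH1, held 9 sites and averaged 76.4 ± 7.08% in subfertile and 67.0 ± 20.1% in fertile cows (limma adjusted p = 0.437). CDH4, retinal cadherin, held 4 sites, 2 in each direction, and averaged 59.2 ± 12.6% and 54.8 ± 13.3% (limma adjusted p = 0.713).

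Of the 10 type II cadherins, 7 had higher and 3 lower means in subfertile cows, with 111 sites higher and 81 lower and a median difference of 8.77 points. Again none passed the adjusted test. CDH8, a cadherin of the developing nervous system, held the most sites of the cadherins proper, 80 on chromosome 18 between 29364903 and 29740434, with 29 higher and 51 lower. The gene mean ran between 41.2% and 58.1% with a median of 48.8% in subfertile cows, and between 48.2% and 65.7% with a median of 61.9% in fertile cows. The groups averaged 49.1 ± 7.01% and 59.7 ± 6.64%, a difference of -10.6 points (SD, n = 6 each; limma adjusted p = 0.201), which was -21.01 points by nearest gene. The direction differed along the gene. Of the 43 sites in its second intron, between 29639089 and 29740434, 36 were lower, at 36.9 ± 14.9% in subfertile and 62.2 ± 14.4% in fertile cows. Of the 9 sites in intron 3 8 were higher, at 73.4 ± 16.97% and 43.2 ± 25.6%, and the 22 sites of intron 10 averaged 57.9 ± 12.4% and 56.9 ± 19.4%. The introns and clusters named here and below were chosen after their values were seen, and none was tested for a difference from the rest of its gene.

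CDH20, also a neural cadherin, held 50 sites on chromosome 24, 49 of them in its first intron, with 38 higher and 12 lower. Its mean ran between 44.1% and 78.6% with a median of 70.0% in subfertile cows, and between 32.7% and 65.4% with a median of 44.8% in fertile cows. Within each group the cows fell apart: subfertile cow 2 was at 44.1% beside 3 cows above 73%, and 3 fertile cows were at 32.7%, 33.6% and 34.0% beside 3 others at 55.7%, 56.1% and 65.4%. The means were 65.1 ± 13.4% and 46.2 ± 14.5%, a difference of 18.8 points (SD, n = 6 each; limma adjusted p = 0.126), which was 8.12 points with sites within 1 kb averaged first.

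CDH10 and CDH12, both on chromosome 20 and active mainly in brain, had the largest mean differences of the type II genes with at least 3 sites. All 11 CDH10 sites were higher, 8 of them in its first intron. In subfertile cows the mean ran between 7.33% and 93.8% with a median of 87.0%, and in fertile cows between 2.48% and 50.9% with a median of 41.1%. Of the subfertile cows 4 were above 86%, while cow 4 was at 45.8% and cow 5 at 7.33%, so the groups overlapped through 2 cows. The means were 68.4 ± 34.7% and 35.0 ± 17.2%, a difference of 33.4 points (SD, n = 6 each; limma adjusted p = 0.129). CDH12 had 9 of 10 sites higher. Its mean ran between 38.2% and 75.6% with a median of 48.5% in subfertile cows, and between 10.6% and 64.98% with a median of 21.8% in fertile cows. Fertile cow 1 lay at 64.98% and the other 5 at or below 36.1%, under every subfertile cow. The means were 53.5 ± 15.3% and 27.6 ± 21.7% (SD, n = 6 each; limma adjusted p = 0.100).

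CDH11, the cadherin of osteoblasts and mesenchyme, held 13 sites and averaged 63.2 ± 9.51% in subfertile and 52.1 ± 14.6% in fertile cows (limma adjusted p = 0.277). CDH5, the cadherin of vascular endothelium, held 9 sites at 72.2 ± 20.5% and 56.5 ± 25.7% (limma adjusted p = 0.303). CDH18, active mainly in brain, held 13 sites at 43.4 ± 5.11% and 41.3 ± 8.90%, and was the flattest of the type II genes with at least 3 sites (limma adjusted p = 0.786). CDH9, CDH19 and CDH22 had fewer than 3 sites each. CDH9 had 2 promoter sites, 46739071 and 46739072 on chromosome 20, inside the listed gene, which runs between 46730846 and 46765482. The pair read 0% in 4 subfertile cows, 24.3% in subfertile cow 4 and 51.5% in subfertile cow 5. The same pair read 0% in fertile cow 3 and between 36.0% and 58.3% in the other 5 fertile cows, and the group means were 12.6 ± 21.4% and 40.1 ± 21.6% (limma adjusted p = 0.113).

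CDH13, the truncated cadherin anchored in the membrane by a lipid and known as a receptor for adiponectin, held 38 sites on chromosome 18, 25 higher and 13 lower. Mean methylation ran between 49.3% and 68.2% with a median of 57.5% in subfertile cows, and between 38.2% and 55.6% with a median of 47.8% in fertile cows. Of the fertile cows 3 lay below every subfertile cow and 3 among them. The means were 57.8 ± 7.07% and 46.9 ± 7.02% (SD, n = 6 each; limma adjusted p = 0.194). The 18 sites in its sixth intron, 15 of them higher, averaged 63.6 ± 11.98% and 39.4 ± 16.96%. For 28 of the 38 sites the nearest gene start was that of HSBP1, not of CDH13, and by nearest gene the CDH13 difference was 5.03 points, against 10.9. CDH17, the cadherin of intestinal epithelium, had 1 promoter site at 64.6 ± 29.3% in subfertile and 83.6 ± 21.7% in fertile cows (limma adjusted p = 0.347).

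**Figure D2:**
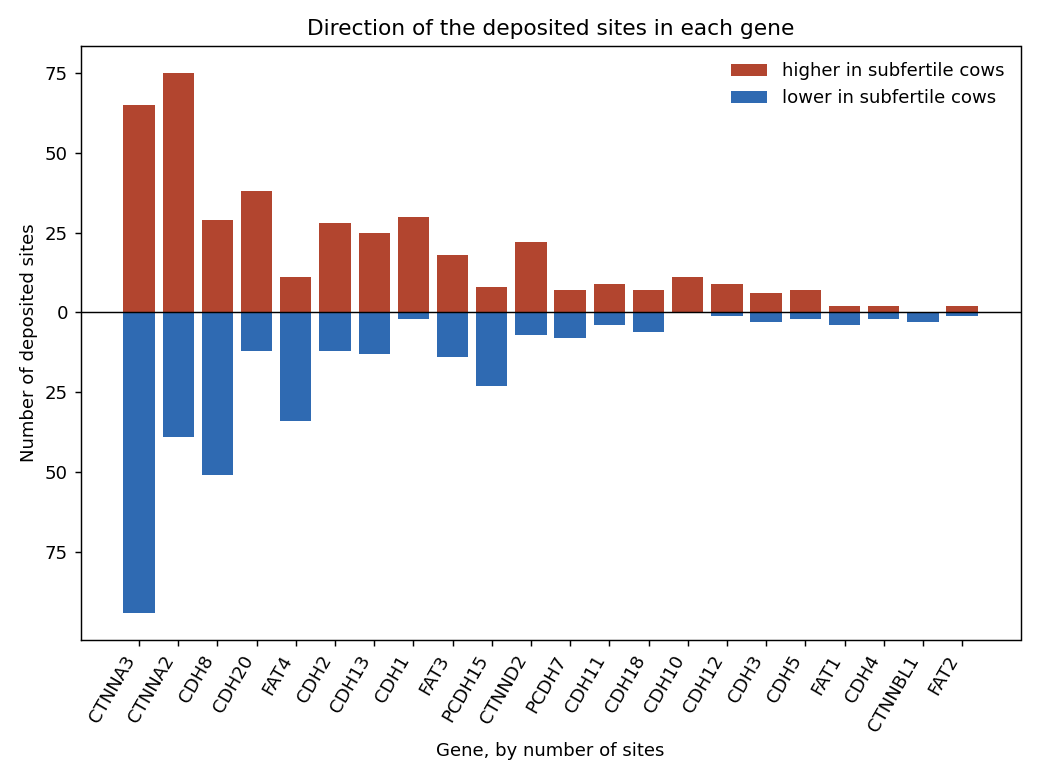
Number of deposited sites higher (red, upward) and lower (blue, downward) in subfertile than in fertile cows for each member gene with at least 3 sites, ordered by number of sites. CDH1 had 30 up and 2 down and CDH10 had 11 up and 0 down, while FAT4 had 11 up and 34 down and CTNNA3 65 up and 94 down.

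Among the protocadherins PCDH15 held the most sites, 31 on chromosome 26, with 8 higher and 23 lower. PCDH15 forms the tip link of inner-ear hair cells together with cadherin-23. Mean methylation ran between 19.7% and 61.9% with a median of 42.6% in subfertile cows, and between 44.7% and 70.4% with a median of 60.7% in fertile cows. Fertile cow 4 lay at 44.7%, within the subfertile range, and subfertile cow 6, at 61.9%, was the only subfertile cow among the fertile cows of 59.4% and above. The means were 40.8 ± 14.1% and 59.96 ± 8.46%, a difference of -19.2 points (SD, n = 6 each; limma adjusted p = 0.109). It was -8.03 points with sites within 1 kb averaged first and -2.30 by nearest gene. In intron 32, which held 12 sites, 11 were lower, at 29.4 ± 20.6% in subfertile and 66.5 ± 12.3% in fertile cows. The gene of its partner, CDH23, held 258 sites of which 188 were higher and 70 lower, and the contrast between the 2 genes was not tested.

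PCDH7, a delta-1 protocadherin, held 15 sites, 7 higher and 8 lower, and averaged 45.5 ± 8.64% in subfertile and 49.1 ± 8.90% in fertile cows (limma adjusted p = 0.674). The sign of that difference turned when sites within 1 kb were averaged first, to 1.74 points. The delta-2 protocadherins PCDH17, PCDH18 and PCDH19 held 4 sites in all, 1 higher and 3 lower. PCDH19, the X-linked member that is mutated in a human epilepsy, had 1 site at 71.7 ± 34.4% in subfertile and 95.7 ± 5.23% in fertile cows, with subfertile cow 1 at 11.1%. PCDHA13, a member of the alpha cluster whose variable exons give neurons their surface identity, had 1 intron site, 52085670 on chromosome 7. It ran between 50% and 86.7% with a median of 72.5% in subfertile cows, and between 20% and 58.3% with a median of 32.1% in fertile cows, and had the lowest adjusted p of the members (72.3 ± 13.04% and 36.5 ± 16.3%, SD, n = 6 each; limma adjusted p = 0.0619). Whether reads of similar genes in the cluster were placed there was not tested.

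The FAT cadherins had 33 sites higher and 53 lower in subfertile cows, with 2 genes higher, 2 lower and a median difference of -3.44 points. FAT4, the receptor for Dachsous in planar polarity, held 45 sites on chromosome 17, 11 higher and 34 lower. Its mean ran between 21.6% and 65.1% with a median of 41.8% in subfertile cows, and between 56.5% and 70.0% with a median of 64.95% in fertile cows. The fertile cows stood close together, and 4 subfertile cows lay below all of them while subfertile cows 3 and 4, at 65.1% and 64.2%, lay among them. The means were 44.9 ± 16.997% and 64.8 ± 4.79%, a difference of -19.9 points (SD, n = 6 each; limma adjusted p = 0.109). FAT3, active mainly in retina and brain, held 32 sites at 63.0 ± 4.25% in subfertile and 58.8 ± 6.44% in fertile cows (limma adjusted p = 0.570). FAT1 had 6 sites at 64.9 ± 12.004% and 76.0 ± 20.5% (limma adjusted p = 0.277), and FAT2 had 3 at 73.5 ± 7.86% and 63.0 ± 18.3% (limma adjusted p = 0.424). The melatonin receptor genes lay nearest to many of these sites: MTNR1B was the nearest gene at 23 of 32 FAT3 sites and MTNR1A at 4 of 6 FAT1 sites.

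The catenin genes held 305 of the 758 sites, 162 higher and 143 lower. CTNNA3, the alpha-T-catenin of heart and testis, held 159 of them on chromosome 28, more than any other member, with 65 higher and 94 lower. Over all its sites the mean ran between 41.4% and 72.5% with a median of 48.6% in subfertile cows, and between 48.3% and 72.8% with a median of 61.5% in fertile cows. Subfertile cows 4 and 5, at 68.5% and 72.5%, lay among the highest fertile cows and the other 4 at or below 50.1%. The means were 54.3 ± 12.9% and 61.1 ± 9.27%, a difference of -6.80 points (SD, n = 6 each; limma adjusted p = 0.486). It was -10.4 points without subfertile cow 5, -4.22 without subfertile cow 3 and -4.45 without fertile cow 6. By nearest gene it was -30.8 points, without wide-range sites -19.4, with sites of at least 40 points -14.2 and over introns alone -2.50. Direction again differed by intron. The 36 sites of the sixth intron were evenly divided, 18 higher and 18 lower, at 59.2 ± 12.3% in subfertile and 58.0 ± 10.4% in fertile cows. The 8 sites of the first intron, 7 of them lower, averaged 46.7 ± 23.7% and 75.1 ± 10.9%. The 7 sites of intron 14, 5 of them higher, ran between 57.7% and 72.9% in subfertile and between 38.4% and 54.7% in fertile cows, without overlap. That intron was picked from all member introns after its values were seen. The share of introns without overlap over all genes was not computed. LRRTM3, a synaptic gene that lies inside CTNNA3, was the nearest gene at 70 of the 159 sites.

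CTNNA2, the alpha-N-catenin of neurons, held 114 sites on chromosome 11, 75 higher and 39 lower. Means ran between 54.1% and 66.6% with a median of 60.8% in subfertile cows, and between 33.9% and 61.7% with a median of 49.6% in fertile cows. Fertile cows 1 and 4, at 56.9% and 61.7%, lay within the subfertile range and the other 4 at or below 49.98%. The means were 60.1 ± 4.62% and 49.4 ± 9.73% (SD, n = 6 each; limma adjusted p = 0.210). The annotation numbers its introns on transcripts of 6 and of 12 introns. The 17 sites of intron 1 of the 6-intron transcript, 15 of them higher, averaged 64.3 ± 17.4% and 35.1 ± 14.6%, while the 74 sites of intron 6 of that transcript, 45 of them higher, averaged 59.6 ± 2.93% and 53.7 ± 12.9%. LRRTM1, nested in CTNNA2, was the nearest gene at 38 sites, and the difference of 10.7 points was 17.96 by nearest gene and 2.85 with sites of at least 40 points.

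CTNND2, the delta-catenin of neurons and a relative of p120-catenin, held 29 sites, 22 higher and 7 lower. It averaged 68.7 ± 9.92% in subfertile and 54.7 ± 18.4% in fertile cows, a difference of 14.0 points (limma adjusted p = 0.223), and of 8.21 points without fertile cow 3, which lay at 25.8%. By nearest gene it was 4.42 points. CTNNBL1, which carries the catenin symbol but is a nuclear protein associated with splicing factors, had 3 intron sites, all lower. Its mean ran between 43.8% and 91.1% with a median of 74.2% in subfertile cows, and between 85.2% and 100% with a median of 96.6% in fertile cows. The fertile cows were nearly fully methylated, and subfertile cows 4 and 5 overlapped them at 88.8% and 91.1%. The means were 70.2 ± 19.96% and 95.1 ± 5.68%, a difference of -24.9 points (SD, n = 6 each; limma adjusted p = 0.0688).

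**Figure D3:**
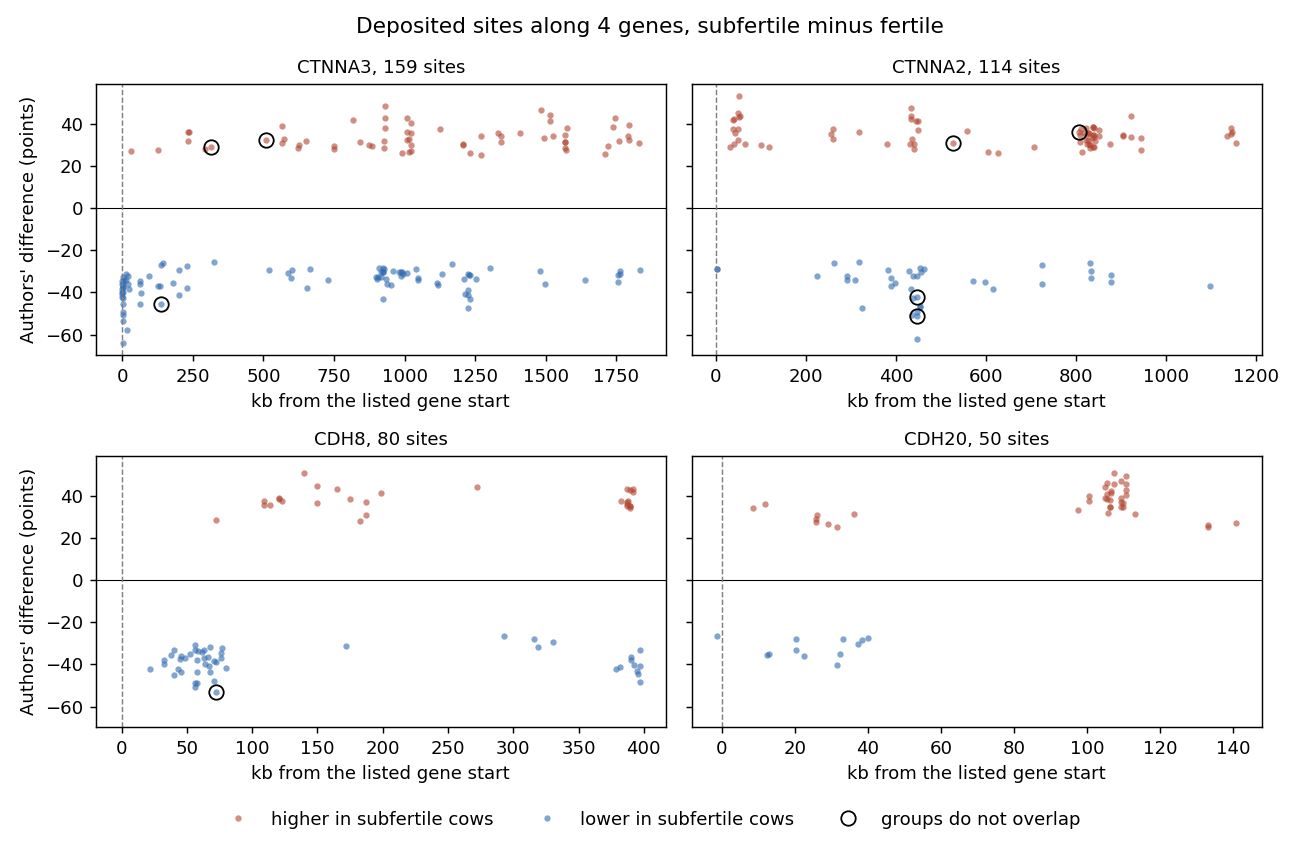
The authors' difference at each deposited site, subfertile minus fertile in percentage points, against distance from the listed gene start in kb, for CTNNA3, CTNNA2, CDH8 and CDH20. Red points are higher and blue points lower in subfertile cows, black rings mark sites whose groups do not overlap, and no point lies within 25 points of 0 because of the authors' selection. CTNNA3 has a column of lower sites at its start, and CDH8 mixes both directions.

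Promoters, here the annotation's class within 3 kb of a listed start, held at least 3 sites in CTNNA3, CDH1 and CDH2. None of the 3 passed the limma test on promoter means, where 205 of 1292 genes (15.9%) passed after adjustment. At an unadjusted p under 0.05 there were 2 of 3, against 51.9%, and none of the 3 separated the groups, against 3.64%. The CTNNA3 promoter held 17 sites between 24118686 and 24123138, at 152 to 2714 bases from the start, all lower in subfertile cows. Subfertile cows 2 and 6 read 0% and cows 1 and 3 read 0.391% and 0.873%, while cow 4 had 40.2% and cow 5 had 80.7%. Fertile cow 4 read 1.39% and the other 5 fertile cows between 46.3% and 85.7%. Both groups thus held nearly unmethylated and highly methylated cows, with 4 nearly unmethylated cows among the subfertile and 1 among the fertile. The means were 20.4 ± 33.6% and 59.9 ± 33.1%, a difference of -39.5 points (SD, n = 6 each; limma adjusted p = 0.0836). Without subfertile cow 5 the difference was -51.6 points and passed (limma adjusted p = 0.0480, with 0.0480 to 0.140 over all settings tried), as 182 of the 1292 genes did. The 142 intron sites of CTNNA3 averaged 58.4 ± 10.8% in subfertile and 60.9 ± 9.81% in fertile cows.

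The CDH1 promoter held 3 sites between 36044768 and 36048999, all higher. They averaged between 81.1% and 100% with a median of 93.3% in subfertile cows, and between 0% and 92.4% with a median of 73.5% in fertile cows, with fertile cow 1 at 0%. The means were 92.4 ± 6.26% and 61.3 ± 35.8% (SD, n = 6 each; limma adjusted p = 0.0819), and without fertile cow 1 the difference of 31.1 points was 18.8 points. With promoters of at least 1 site included, 7 members were tested, 0 passed, against 0.0909% of all genes. The unadjusted p was under 0.05 in 3 of them, against 47.7%. The CDH2 sites of the promoter class were 3, between 28745248 and 28745895, all lower, against the direction of most CDH2 intron sites. They lay inside the listed gene, which starts at 28655047, and between intron 2 sites at 28694016 and 28779278. The listed start nearest to them was 729 to 1376 bases away. They averaged between 0% and 93.8% with a median of 52.9% in subfertile cows, and between 48.7% and 98.1% with a median of 81.1% in fertile cows (52.6 ± 40.7% and 77.0 ± 17.1%, SD, n = 6 each; limma adjusted p = 0.244).

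At 13 sites the subfertile and the fertile cows with a value did not overlap, 9 of them higher and 4 lower. All 12 cows had a value at 7 of these, and 6 lacked at least 1 cow. This was 1.72% of the 758 sites, against 2.93% of all sites in gene features. They lay in CTNNA2 with 4, CTNNA3 with 3, CDH13 with 2, and CDH2, CDH8, PCDH7 and PCDH17 with 1 each. At 28776727 on chromosome 24, in the second intron of CDH2, the 5 subfertile cows with a value read 100% and the fertile cows between 33.3% and 92.9%. At 9849201 on chromosome 18, in the sixth intron of CDH13, all 6 subfertile cows read 100% and the 5 fertile cows with a value ran between 0% and 92.3%. In both, the subfertile cows were uniformly methylated and the fertile cows spread downward.

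The opposite held at 23982792 on chromosome 28, in the fourth intron of CTNNA3, where subfertile cows ran between 27.3% and 90.9% and fertile cows between 91.7% and 100%. At 29689529 on chromosome 18, in the second intron of CDH8, subfertile cows ran between 0% and 37.5% and fertile cows between 40% and 100%, with an authors' difference of -53.0 points. At 55538457 on chromosome 11, in intron 6 of the 6-intron transcript of CTNNA2, they ran between 0% and 45.5% and between 46.2% and 100%, with an authors' difference of -51.4 points. At these 3 sites the nearest cows of the groups lay close together, such as 90.9% and 91.7% in CTNNA3.

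Some sites stood in runs in which cows differed together. Sites of 1 gene within 1 kb of the next formed 479 clusters, 312 of a single site and 12 of 5 or more. The cluster with the most sites was in the first intron of CDH20, 13 sites between 59992779 and 59995140. Subfertile cows 1, 3 and 6 had 85.2%, 92.2% and 92.5%, cows 4 and 5 had 47.0% and 46.3%, and cow 2 had 7.31%. Fertile cows 2, 3 and 5 had 46.4%, 44.3% and 40.6%, and cows 1, 4 and 6 had 4.07%, 1.92% and 2.88%. The 12 cows thus lay at 3 levels, near 90%, near 45% and near 5%, and only the middle and the low level occurred in the fertile cows. A second CDH20 cluster, 10 sites between 59997047 and 59998486, placed every cow at the same level as the first (Pearson r = 0.991 between the clusters over 12 cows, after removing each group's mean, as a description).

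In CDH1, 6 sites between 36050236 and 36052622 read between 92.2% and 97.3% in the subfertile cows. The fertile cows had 0%, 92.4%, 98.6%, 93.5%, 46.1% and 52.0%, so 3 of them matched the subfertile cows, 2 lay near the middle and fertile cow 1 was unmethylated. In CTNNA2, 8 sites between 55145800 and 55149176 ran between 82.0% and 87.2% in subfertile cows and between 0% and 81.6% in fertile cows. The groups did not overlap there, but their nearest cows lay at 82.0% and 81.6%. The share of clusters without overlap over all genes was not computed. Among the fertile cows 3 had 75.4%, 75.4% and 81.6%, another pair 34.2% and 35.4%, and fertile cow 6 had 0%. In PCDH15, 7 sites between 5561875 and 5562472 had 0% in subfertile cows 1 and 2, between 36.9% and 39.1% in cows 3, 4 and 5, and 72.8% in cow 6, while the fertile cows ran between 46.9% and 81.6%.

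**Figure D4:**
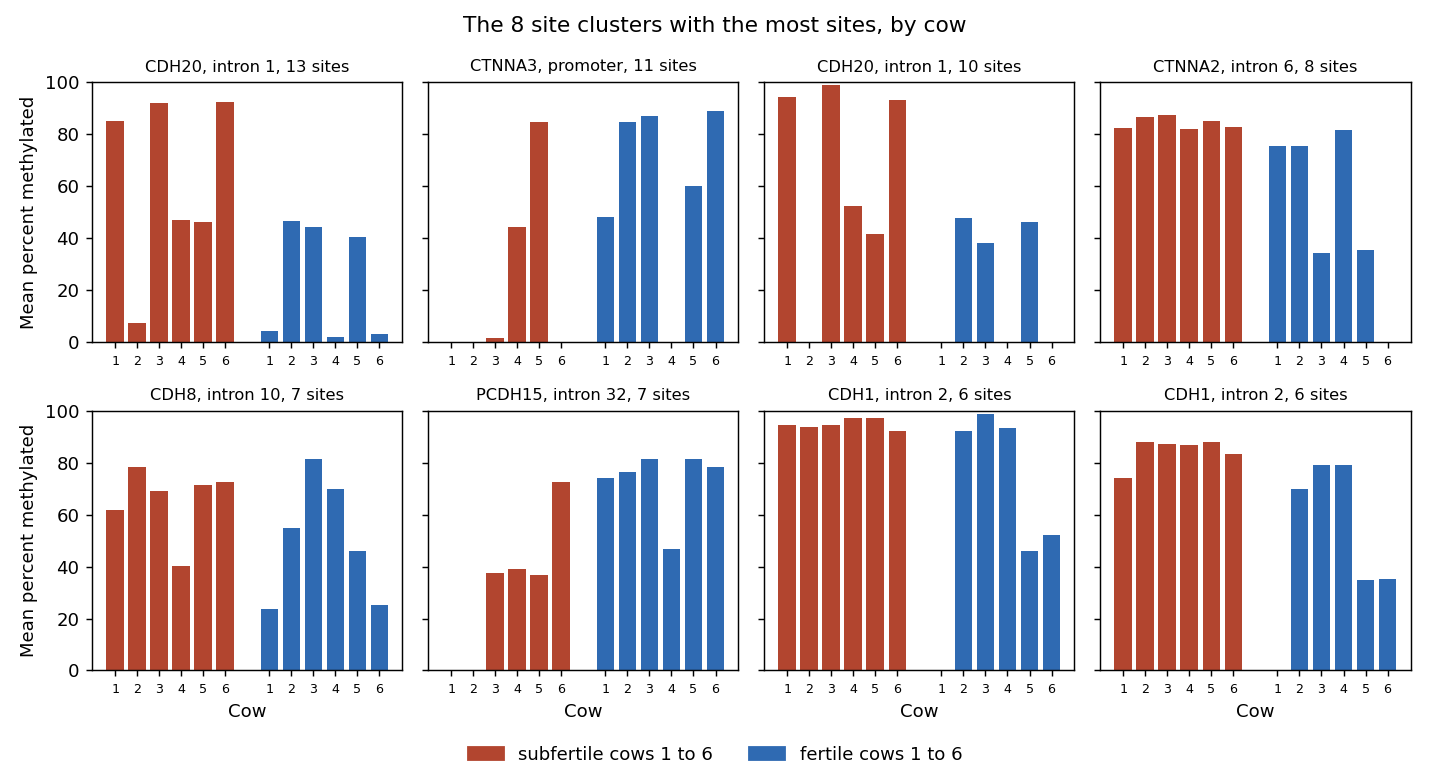
Mean percent methylated in each cow over the 8 clusters with the most sites, with subfertile cows 1 to 6 as red bars on the left and fertile cows 1 to 6 as blue bars on the right of each panel. Cows in the CDH20, CTNNA3, PCDH15 and CDH1 panels stand at a few separate levels, such as near 90%, 45% and 5% in CDH20.

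Wide spread of that kind was common among the sites. At 583 of the 758 sites (76.9%, against 69.7% of all sites in gene features) the values were wide-range as defined above. Such sites included 31 of 32 sites in CDH1, 43 of 45 in FAT4, 123 of 159 in CTNNA3 and 15 of the 17 CTNNA3 promoter sites. Whether sequence variants at or near a cytosine had a part in such values was not tested, since no genotypes were used here. Both strands of a CpG were present for 148 CpGs, and all 148 had the same direction on both strands, with a median gap of 6.67 points between the strands of a cow over 1730 values.

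Deviations of cows from their group mean were shared most over short distances. The median Pearson r over 12 cows was 0.899 for both strands of a CpG, 0.861 for sites of a gene up to 1 kb apart and 0.751 at 1 to 10 kb. At 10 to 100 kb it was 0.249, over 100 kb 0.0458, and between sites on different chromosomes -0.0089. Regardless of sign the median r was 0.546 at 10 to 100 kb and 0.2895 over 100 kb, against 0.2125 between chromosomes. The share of pairs with the same direction was 83.5% up to 1 kb, 74.2% at 1 to 10 kb, 58.8% at 10 to 100 kb and 49.7% over 100 kb. Neighbouring sites of a gene are therefore not separate measurements of the groups.

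**Figure D5:**
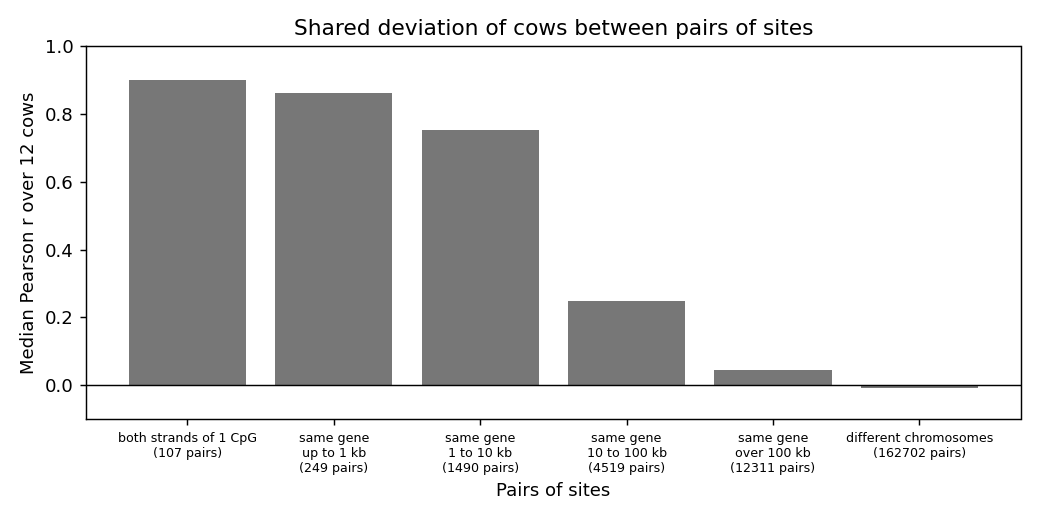
Median Pearson r between pairs of member sites over the 12 cows, after removing each group's mean, for pairs on both strands of a CpG, at 4 distance ranges within a gene and on different chromosomes, with the number of pairs under each bar. The bar for both strands stands at 0.899, the bar over 100 kb at 0.0458 and the bar for different chromosomes at -0.0089.

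Fertile cow 1 stood apart in neighbouring cadherin genes. Among the 22 genes with at least 3 sites fertile cow 4 and fertile cow 1 were each the lowest of the 12 cows in 5. For fertile cow 1, 4 of these were CDH11, CDH5, CDH3 and CDH1, which lie in that order on chromosome 18 between 32686338 and 36114611. Its means there were 28.2%, 16.7%, 32.7% and 5.80%, against 44.8%, 44.3%, 55.6% and 42.4% in the next lowest cow of each gene. It read 0% at 9 of 13, 7 of 9, 6 of 9 and 30 of 32 sites in the 4 genes. Without it the differences between the groups were 6.27 points in CDH11, 7.66 in CDH5, 2.54 in CDH3 and 16.3 in CDH1, against 11.1, 15.6, 9.39 and 26.7 points with it. CDH13 and CDH8, at lower coordinates of the same chromosome, had this cow at 50.7% and 56.2%, inside the range of the others. In CDH8 that mean combined opposite values: the cow read 0% at 28 of the 80 sites, with 2.71% over the 29 higher sites and 86.7% over the 51 lower ones.

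The partners of cadherins were read through lists of genes chosen for their roles. Of 43 adherens junction and desmosome genes 30 were tested, with 0 past the adjusted test and 10 at an unadjusted p under 0.05, 4 higher and 6 lower (33.3%, against 40.6% of all genes). PTPRK, a receptor phosphatase of cell contacts, held 65 sites at 41.7 ± 15.7% in subfertile and 73.6 ± 7.69% in fertile cows, without overlap (limma adjusted p = 0.0627). RAPGEF1, an exchange factor for RAP1, held 88 sites at 92.6 ± 2.72% and 55.3 ± 34.1% (limma adjusted p = 0.0893). JUP, plakoglobin, held 8 sites at 96.05 ± 1.82% and 67.1 ± 29.2%, and ACTN4, an actinin, 8 sites at 29.3 ± 23.1% and 74.4 ± 25.7%. Other genes of the list with many sites differed less. PTPRM, with 138 sites, was at -13.3 points, ACTN1, with 42, at 10.8, ABLIM1, with 36, at 0.925 and LMO7, with 26, at 2.13. The groups did not overlap in 1 of the 30 genes, PTPRK, against 3.38% of all genes.

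Of 31 Fat, Dachsous and planar polarity genes 14 were tested, with 0 past the adjusted test. At an unadjusted limma p under 0.05 there were 5, 2 higher and 3 lower (35.7%, against 40.6% of all genes). Their median difference was -8.90 points, against 1.78 over all genes. PTK7, a membrane protein of planar polarity, was higher without overlap at its 1 site, 65.4 ± 6.14% in subfertile and 31.5 ± 15.97% in fertile cows (limma adjusted p = 0.0614). FZD3, a Frizzled receptor, averaged 82.8 ± 7.65% and 58.6 ± 18.5%. PRICKLE1, a cytoplasmic polarity protein, held 22 sites at 39.1 ± 12.6% in subfertile and 71.6 ± 21.8% in fertile cows (limma adjusted p = 0.0791). Of 55 beta-catenin signalling genes 20 were tested, with 0 past the adjusted test and 8 at an unadjusted p under 0.05, 1 higher and 7 lower (40%). Of the 20, 5 were higher and 15 lower, with a median of -22.6 points. TCF7L2, a transcription factor that beta-catenin binds, held 35 sites at 28.5 ± 9.86% and 45.8 ± 8.65%, and LGR5, an R-spondin receptor, 18 sites at 52.3 ± 18.01% and 78.1 ± 19.3%. LGR4, the related receptor, was the 1 higher gene of the 8 with an unadjusted limma p under 0.05, at 59.9 ± 20.3% and 24.3 ± 14.7% over 2 sites.

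Marker genes of blood cell types also held selected sites. Of 39 such genes 14 were tested, with 0 past the adjusted test. At an unadjusted limma p under 0.05 there were 8, 3 higher and 5 lower (57.1%, against 40.6% of all genes). The median difference of the 14 was -19.4 points, against 1.78 over all genes. Both directions occurred among the tested B-cell, cytotoxic-cell and T-cell genes. MPO of neutrophils and ITGA2B of platelets, both lower, were the only tested genes of their cell types. Of the B-cell genes BANK1 was higher, with 121 sites at 77.0 ± 11.04% in subfertile and 45.4 ± 13.1% in fertile cows. PAX5 was also higher, with 12 sites at 75.8 ± 8.35% and 54.9 ± 25.7%. MS4A1 was lower, with 1 site at 53.1 ± 29.8% and 88.7 ± 17.2%. Of the cytotoxic-cell genes NKG7 was higher, with 1 site at 78.0 ± 6.14% and 38.6 ± 21.5%, and GZMB lower, with 5 sites at 50.5 ± 21.1% and 88.2 ± 4.91%. NCR1 was also higher, at a difference of 15.9 points, and PRF1 and KLRD1 lower, at -33.6 and -5.94 points. Of the T-cell genes CD3E was higher and CD5, BCL11B and THEMIS lower. NKG7 and the lower MPO, of neutrophil precursors, and THEMIS, of T cells, separated the groups without overlap, 3 of 14 against 3.38% of all genes. The part of blood cell composition in the values of the cadherin, protocadherin, FAT and catenin genes was not tested.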

How the data were processed

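Blood DNA of 12 cows was measured, 6 subfertile and 6 fertile per the labels. Per the submitters' processing notes, fastp 0.23.1, Bismark, DRAGEN and ChIPseeker 1.32.1 were used with build ARS-UCD1.2. The authors' statistical tool and any read minimum: not given in the sources used here. Per the file headers, the deposited table gives the percent methylated per cow and group, with the authors' p-value, q-value and difference in points. It holds percentages without read counts, so depth and counting error are unknown, and no interval is given. All columns of cow values matched a cow's number.

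Per gene and cow, the percent was averaged over sites. Gene means, promoter means and sites were tested with limma 3.58.1 in R 4.3.3 on log2((percent + 5)/(100 − percent + 5)), as planned for percentages, modelling group alone and adjusting by Benjamini-Hochberg over everything tested. The 5 points were chosen with these values known. The step was checked on simulated data. Cows were numbered in accession order within a group.

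Genes named were those with at least 20 sites, the 8 largest differences each way among genes with at least 3 sites, genes with at least 3 promoter sites, and every catenin and FAT gene with at least 3 sites. Single sites were the non-overlapping site of largest difference in each gene of at least 20 sites. Other sites, introns, clusters and genes with fewer sites were picked once their values were known. Genes of the partner and marker lists were named without a set rule. The members, lists and tests were chosen with earlier results of these data known. A wide-range site has at least 1 cow under 10% and at least 1 over 80%. Alternatives changed the points added, the sites kept, the gene assigned to a site, the averaging of neighbours and the cows included. No sequence is printed, since no genome or sequence table was used here.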

Additional observations from a re-analysis of the deposited data

Results flagged for a closer look

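A single cow lay far from the others of its group, judged by the gap to its neighbour over the group's range, in 9 of 148 sets of cow values. The sets were the means of member genes, promoters, introns with at least 7 sites and clusters with at least 5, and the single sites named by rule, each in 1 group. For independent sets of normally distributed values chance alone would flag about 1 in 20. The sets here share sites and cows, and cows in some clusters stand at a few levels. The 9 of 148 can therefore not be compared with that rate. The CTNND2 mean of subfertile cow 5 was 49.2%, while the other 5 subfertile cows lay between 68.4% and 76.8%. The CDH4 mean of fertile cow 3, over 4 sites, was 81.7%, while the other 5 fertile cows lay between 46.6% and 52.1%. In intron 32 of PCDH15 fertile cow 4 had 42.4%, against 67.9% to 77.8% in the other fertile cows, and in the PCDH15 cluster that starts at 5561875 it had 46.9%, against 74.3% to 81.6%. In the first intron of CDH2 fertile cow 2 had 37.5%, against 8.33% to 10% in the others, and in the CDH2 cluster at 28713113 it had 51.9%, against 35.3% to 40%. The same cow had 0% in the first intron of CDH10, where the other fertile cows had 35.6% to 49.0%. In the second CDH1 cluster, at 36053789, subfertile cow 1 had 74.3%, while the other subfertile cows lay between 83.6% and 88.1%. In the FAT4 cluster at 32388233 fertile cow 3 had 68.8%, while the other fertile cows lay between 54.8% and 60%.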

How the results depend on the processing

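The count of members past the adjusted gene test was 0 as reported and 0 under every alternative run except 2. Without wide-range sites it was 10 of 28 members, where 42.2% of all genes passed, and with sites of at least 40 points only it was 5 of 15, where 43.7% passed. Both keep sites by their values, and the cause was not tested. Leaving out 1 cow in turn gave 0 throughout, while the count over all genes ran between 5 and 65. The share of sites higher in subfertile cows, 54.6%, was 47.4% among 137 sites of at least 40 points and 49.7% among 175 sites that are not wide-range. Non-overlapping sites numbered 13, and 7 among the 620 sites with all 12 cows, where fewer sites were examined. Leaving out 1 cow gave 17 to 39 such sites, over 1.5 times the count for each cow except fertile cow 6, and fewer cows overlap less by construction. Promoter calls ran between 0 and 1 when 1 cow was left out, the 1 being CTNNA3 without subfertile cow 5, and the count over all promoters, 205 as reported, ran between 4 and 182. With promoters held to 1 kb no member had 3 sites, so that alternative gave no value. Of 671 values for single genes under alternatives, 644 kept direction and side of the threshold, 14 passed it newly in the same direction and 13 turned in sign, of which 2, FAT4 and PCDH7 without wide-range sites, also passed. Those that turned without wide-range sites included FAT4 at 28.5 points and PCDH7 at 29.5, each over 2 sites. The others there were CDH11 at -19.4 and CDH3 at -14.5, each over 4, and CDH4 at -19.1 and CDH22 at -25.03, each over 1. With sites within 1 kb averaged the genes that turned were PCDH7 at 1.74, CDH4 at -6.38 and FAT2 at -1.52. With sites of at least 40 points they were CTNND2 at -29.9 over 2 sites and PCDH7 at 7.62 over 3. PCDH7 was at 1.97 by nearest gene and CDH22 at -25.03 over complete sites. Leaving out 1 cow also moved smaller differences by over 1.5 times: CDH18, 2.10 points, ran between 0.0261 and 4.18, CDH4, 4.35, between 1.19 and 9.72, PCDH7, -3.68, between -6.50 and -2.02, FAT3, 4.20, down to 2.63, FAT1, -11.1, between -18.5 and -6.27, FAT2, 10.4, between 5.77 and 16.2, and the CDH2 promoter, -24.4, up to -13.9. PCDH19, -24.0, was -11.9 without subfertile cow 1. The cause was not tested. No paired analysis was possible because the labels give the cows no replicate numbers shared between groups. Unknown read depth limits every single-site value.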

Other observations

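Sites that the annotation calls distal intergenic were outside the rule but often had a cadherin or protocadherin as nearest gene. There were 619 such sites by 31 genes, 317 higher and 302 lower in subfertile than in fertile cows (51.2% higher, against 53.2% of all distal intergenic sites). At 27 of them the groups did not overlap (4.36%, against 3.23%). PCDH17, a delta-2 protocadherin with 2 sites in its introns, had 165 distal sites, 69 higher and 96 lower, which averaged 48.8 ± 4.78% in subfertile and 54.8 ± 4.92% in fertile cows (SD, n = 6 each). CDH11 had 153 distal sites, 77 higher and 76 lower, at 55.1 ± 4.15% and 55.1 ± 5.36%. PCDH8, another delta-2 protocadherin, had 35 with 27 lower, at 55.4 ± 20.4% and 72.4 ± 8.16%. CDH12 had 20 with 17 higher, at 64.4 ± 10.8% and 44.0 ± 8.67%. Distal and gene sites had the same direction in some genes, such as CDH12, and opposite directions in others. CDH8 differed by 5.41 points over 60 distal sites and by -10.6 over its gene sites. PCDH17 differed by -6.06 points over its distal sites and by 15.4 over its 2 gene sites. These values were not tested, and nearness to a gene does not show that a site acts on it.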
